A study of Mus musculus with 4 samples.

Results

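Respiratory chain genes were described across marker-gated blood cell classes of donor bone marrow. Members were all genes whose symbol begins with Ndufa, Ndufb, Ndufc, Ndufs, Ndufv, Uqcr, Cox4 to Cox8, Atp5, Sdh or mt-, leaving out the Ndufaf assembly factors and pseudogenes, with at least 100 unique molecular identifiers (UMIs, 1 for each captured transcript molecule) in total. Of 32285 genes measured, 102 symbols matched and 98 reached that count. The members were 76 nuclear subunits, 13 mt- genes of the mitochondrial genome, 4 tissue isoforms (Cox4i2, Cox6a2, Cox6b2 and Cox7a1) and 5 assembly or bridging genes (Sdhaf1 to Sdhaf4 and Cox7a2l). The 4 symbols that stayed below the count were Cox7b2 with 0 UMIs, Cox8c with 1, Cox8b with 4 and Ndufa4l2 with 29.

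The cells were hematopoietic stem and progenitor cells (HSPCs) of C57BL/6 mice, sorted from bone marrow as CD45.2 donor cells 20 weeks after a competitive transplantation, in which test and competitor cells repopulate the same host. The labels list 2 samples with wild-type donor cells and 2 with donor cells heterozygous for a Srcap mutation. The allele, the competitor, the hosts and the ages of the animals are not given in the sources used here. The 4 libraries lie in 1 pooled count matrix and are separated by a barcode suffix, called library 1 to 4 here. No label ties a suffix to a sample, so wild type and mutant were not compared, and libraries are given one by one, with no test.

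Each library held between 112027160 and 144385614 UMIs and between 9026 and 12418 cells that passed the limits of 500 detected genes or more and mitochondrial UMIs of 10% or less. The median cell had 9824 to 10226.5 UMIs. Of 41122 such cells, 22678 were placed in 1 of 15 classes because at least 3 of the 6 markers of that class, and more than of any other class, were detected. For 10 of the 15 classes all 6 markers were higher there than in every other class. The exceptions were the lymphoid progenitor-like and monocyte progenitor-like classes with 3 of 6 each, the conventional dendritic cell-like class with 4 of 6, and the pro-B and pre-B-like and granulocyte progenitor-like classes with 5 of 6 each. Though the sort was for HSPCs, 559 cells carried plasma cell markers and 168 carried markers of T, NK and innate lymphoid cells. In all, 207 barcode sequences occurred in 2 libraries and 2 in 3 libraries, and without those barcodes the nuclear and mt- medians of all class comparisons moved by less than the spread of the libraries.

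The respiratory chain passes electrons from food molecules to oxygen through complexes I to IV of the inner mitochondrial membrane and pumps protons, and complex V uses the proton gradient to make ATP. Its subunits come from 2 genomes. Most are encoded in the nucleus and imported, while a few core subunits are encoded, transcribed and translated inside the mitochondrion, and complex II has none of the latter. Blood stem cells are known for low respiratory activity and reliance on glycolysis while quiescent, and for a shift to oxidative phosphorylation on activation.

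Sequences are printed for the members whose levels split between gene copies. Atp5g1, Atp5g2 and Atp5g3 each encode subunit c, the proteolipid that forms the rotating ring of complex V, behind different import sequences. The last 234 bases of their coding sequences, taken from the GENCODE annotation of the mouse genome and given on the strand of the gene, hold 78 codons for the same amino acids in all 3 genes. In capitals are the 63 positions at which the 3 genes are not identical, of which 55 are at the last base of a codon.

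Atp5g1: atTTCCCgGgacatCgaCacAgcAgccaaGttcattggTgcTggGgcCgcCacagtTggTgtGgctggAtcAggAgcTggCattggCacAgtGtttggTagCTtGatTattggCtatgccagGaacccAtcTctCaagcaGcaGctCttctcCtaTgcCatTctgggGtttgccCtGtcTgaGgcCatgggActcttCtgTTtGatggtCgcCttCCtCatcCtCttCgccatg

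Atp5g2: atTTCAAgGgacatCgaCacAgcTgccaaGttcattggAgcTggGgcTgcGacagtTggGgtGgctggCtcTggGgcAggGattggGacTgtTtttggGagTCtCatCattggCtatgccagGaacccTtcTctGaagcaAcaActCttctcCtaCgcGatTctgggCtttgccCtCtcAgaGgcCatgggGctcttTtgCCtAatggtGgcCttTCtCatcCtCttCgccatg

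Atp5g3: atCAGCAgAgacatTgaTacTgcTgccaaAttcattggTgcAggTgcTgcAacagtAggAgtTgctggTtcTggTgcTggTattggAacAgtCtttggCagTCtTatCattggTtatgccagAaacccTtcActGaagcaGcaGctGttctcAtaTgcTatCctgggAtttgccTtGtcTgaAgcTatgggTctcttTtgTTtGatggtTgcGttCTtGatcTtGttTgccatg

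Cox6a2, on chromosome 7 (128205435 to 128206387, minus strand, mm10), is the heart and skeletal muscle form of a complex IV subunit, and Cox6a1, on chromosome 5, is the common form. The whole Cox6a2 coding sequence of 291 bases is printed with the 101 positions in capitals that did not match Cox6a1 in an alignment of both. The 190 matching positions were 65.3% of the bases aligned without a gap. Whether each counted read tells both genes apart was not tested, and the untranslated ends were not compared.

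Cox6a2: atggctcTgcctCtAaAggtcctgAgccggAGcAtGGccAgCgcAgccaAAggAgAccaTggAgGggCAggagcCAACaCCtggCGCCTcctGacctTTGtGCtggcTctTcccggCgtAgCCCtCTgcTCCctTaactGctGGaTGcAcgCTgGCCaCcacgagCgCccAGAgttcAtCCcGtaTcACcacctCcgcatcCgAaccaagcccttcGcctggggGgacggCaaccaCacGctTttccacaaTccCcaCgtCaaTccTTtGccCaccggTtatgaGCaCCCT

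Levels are given as CPM, the UMIs of a gene divided by those of all genes in the same library and class and scaled to a common total. The 3' counts are not scaled by gene length and are compared between cells, not between genes. Each class with at least 30 cells in every library was set against the HSC-like cells of the same library as a difference of log2(CPM + 1), a scale that understates the change of low genes. HSC-like cells were gated on Procr, Hlf, Mecom, Fgd5, Slamf1 and Ctnnal1. A gene was called higher (or lower) if each of the 4 libraries showed a difference of 1.5-fold or more on that side, which is a rule of size. All 8 class comparisons share the HSC-like cells, so they are not independent of each other, and their values stand side by side. The 76 nuclear and the 13 mt- members all passed the filter of 10 CPM averaged over both sides.

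Nuclear and mt- members lay on opposite sides of the HSC-like level in 7 of 8 classes. The median nuclear member was above HSC-like cells in pro-B and pre-B-like, erythroid-like, monocyte progenitor-like, megakaryocyte-like and granulocyte progenitor-like cells, and the median mt- member was below in each of them. In pro-B and pre-B-like cells the nuclear median was 0.53, 0.43, 0.57 and 0.59 (log2) in libraries 1 to 4 and the mt- median was -0.48, -0.39, -0.59 and -0.64. The corresponding nuclear medians were 0.49, 0.44, 0.60 and 0.67 in erythroid-like cells, against mt- medians of -0.12, -0.08, -0.23 and -0.30. Nuclear medians over the libraries were 0.42 in monocyte progenitor-like cells, 0.42 in megakaryocyte-like cells and 0.40 in granulocyte progenitor-like cells, and mt- medians were -0.43, -0.32 and -0.26. Libraries agreed in sign for each of these medians. Over all genes tested the median was -0.17 in pro-B and pre-B-like, -0.09 in erythroid-like, -0.15 in monocyte progenitor-like, 0.00 in megakaryocyte-like and -0.09 in granulocyte progenitor-like cells.

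The call rule gave unequal counts for the same classes. In pro-B and pre-B-like cells 25 of 76 nuclear members were called higher and 0 lower, beside 11.8% of all 8058 genes tested called higher and 20.6% called lower. In erythroid-like cells 20 were higher and 0 lower, beside 9.15% and 18.1% of all genes. Monocyte progenitor-like cells had 12 higher and 0 lower, beside 8.47% and 16.1%, and granulocyte progenitor-like cells 7 and 0, beside 4.13% and 10.5%. In megakaryocyte-like cells 3 nuclear members were called higher and 0 lower, beside 3.54% and 7.91% of all genes, a share near the background, although 73 of 76 lay above 0 in every library. Without library 2 the count was 8, beside 5.69% of all genes. Of the 13 mt- members, 2 were called lower in pro-B and pre-B-like cells (mt-Co1 and mt-Nd6), 2 in monocyte progenitor-like cells (mt-Nd6 and mt-Cytb), 1 in granulocyte progenitor-like and 1 in erythroid-like cells (mt-Nd6 both times), 0 in megakaryocyte-like cells, and none was higher. In each of these classes the mt- share called lower was not above that of all genes. The calls of mt-Nd6 are uncertain, as its capture by 3' counts was not tested.

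On the CPM scale, lymphoid progenitor-like and conventional dendritic cell-like cells stayed close to HSC-like cells in their nuclear members. The nuclear median was 0.07, 0.02, 0.09 and 0.14 in lymphoid progenitor-like cells, with 0 of 76 members called in either direction beside 3.28% of all genes called higher and 5.95% lower. It was 0.16, 0.01, 0.05 and 0.12 in conventional dendritic cell-like cells, where 1 member, Cox6a1, was called higher and 0 lower, beside 10.1% and 23.3% of all genes. Without library 3 the counts were 3 and 1, beside 10.9% and 26.9%. The mt- medians were -0.16 and -0.54 in these classes. In conventional dendritic cell-like cells 3 of 13 mt- members (mt-Atp6, mt-Co3 and mt-Cytb) were called lower, a share near the 23.3% of all genes. All genes together had a median of -0.05 in the former and -0.42 in the latter, so the nuclear median of the latter lay further above that of all genes. With TMM factors, a scale explained below, the nuclear medians were 0.19 and 0.47, with 0 and 17 of 76 members called higher. Of all genes tested, 354 of 8281 and 1287 of 8324 were called higher on that scale.

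Plasma cell-like cells were the class in which both sets lay below HSC-like cells on this scale. The nuclear median was -0.55, -0.59, -0.69 and -0.70 and the mt- median -0.85, -0.71, -0.91 and -0.93. Of the nuclear members 31 were called lower and 1 higher, and 9 of 13 mt- members were lower, but 69.6% of all 7668 genes tested were called lower and 4.13% higher, and the median over all genes was -1.11. Immunoglobulin transcripts took 42.5%, 43.3%, 49.1% and 51.0% of all UMIs in these cells. With mt-, immunoglobulin and hemoglobin UMIs left out of the total, the nuclear median became 0.26, the mt- median 0.070 and the median of all genes -0.26, so the direction of both sets in plasma cell-like cells depends on that total. On that scale 7 of 76 nuclear members (9.21%) were called higher and 0 lower, beside 9.68% and 13.5% of all genes, so the share higher was near the background.

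**Figure D1:**
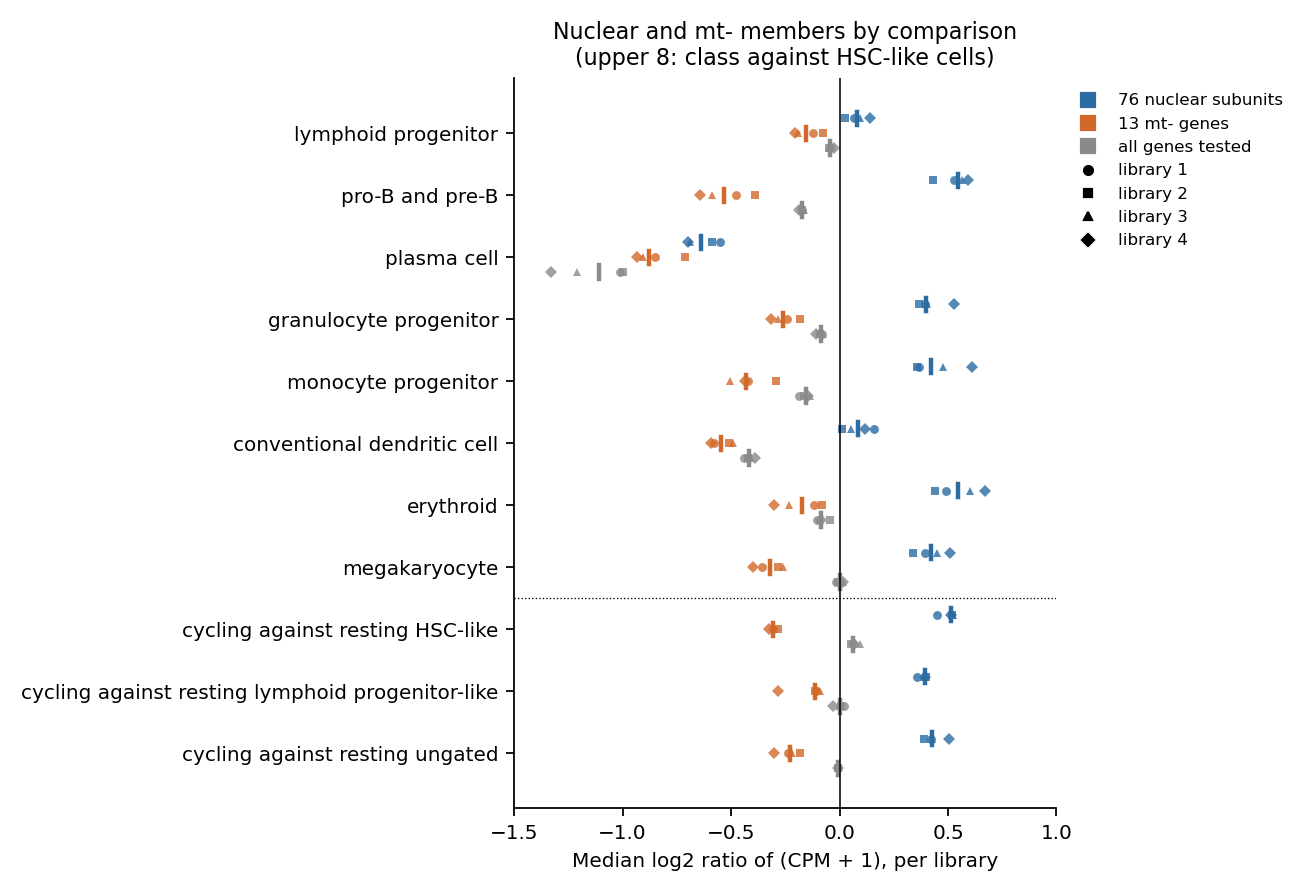
Median log2 difference from HSC-like cells of the same library (x axis, log2 of CPM + 1) for nuclear members, mt- members and all genes tested, by cell class and, below the dotted line, for cycling against resting cells. Each mark is 1 library and each upright bar the median of the 4; the nuclear marks lie to the right of the mt- marks in every row, and only the plasma cell-like row has the nuclear marks below 0.

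Another choice of scale moved all genes and the members together. Scaling by TMM factors (a trimmed mean that sets the bulk of genes to no change) raised the median of all genes by 1.07 in plasma cell-like, 0.41 in conventional dendritic cell-like, 0.29 in monocyte progenitor-like, 0.25 in pro-B and pre-B-like, 0.18 in erythroid-like, 0.16 in granulocyte progenitor-like, 0.11 in lymphoid progenitor-like and 0.06 in megakaryocyte-like cells. With it 49 nuclear members were called higher in pro-B and pre-B-like cells, 40 in erythroid-like, 40 in monocyte progenitor-like, 24 in granulocyte progenitor-like, 17 in conventional dendritic cell-like, 15 in plasma cell-like, 7 in megakaryocyte-like and 0 in lymphoid progenitor-like cells, and 0 were lower in each. The mt- median then stayed below 0 except in plasma cell-like (0.27) and erythroid-like cells (0.012). These counts are of 76 members and stand beside those of all genes, where lower calls outnumber higher ones in every class on the CPM scale. TMM gave 1482 higher and 1138 lower of 8105 genes tested in pro-B and pre-B-like cells and 1170 and 1131 of 8071 in erythroid-like cells. Monocyte progenitor-like cells had 1239 and 865 of 8278, and granulocyte progenitor-like cells 686 and 553 of 8171. Megakaryocyte-like cells had 404 and 544 of 8175, and lymphoid progenitor-like cells 354 and 400 of 8281. Conventional dendritic cell-like cells had 1287 and 1043 of 8324, and plasma cell-like cells 1065 and 690 of 8470.

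The ratio of mt- to nuclear UMIs does not depend on any scale. HSC-like cells held 2.04, 2.04, 2.14 and 2.08 mt- UMIs per nuclear UMI in libraries 1 to 4, from 1.91% of UMIs in nuclear and 4.01% in mt- members (medians over libraries). Pro-B and pre-B-like cells held 0.926, 1.035, 0.881 and 0.807, the lowest ratio of the classes compared, from 2.88% and 2.59%. The erythroid-like ratio was 1.18, 1.35, 1.11 and 0.971, and the monocyte progenitor-like ratio was 1.05, 1.17, 0.96 and 0.84. Lymphoid progenitor-like cells, at 1.76, 1.89, 1.73 and 1.61, and plasma cell-like cells, at 1.57, 1.73, 1.70 and 1.53, lay nearer the HSC-like level. In none of the 8 classes did any library reach the lowest HSC-like ratio. Among classes too small for the comparison, macrophage-like cells lay just under the HSC-like range or below at 2.02, 1.94, 1.96 and 1.44, and mature B-like cells, with a median of 2253 UMIs, lay above it at 2.18, 2.19, 2.72 and 2.78.

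By complex, the HSC-like ratio was 0.964 for complex I, 1.89 for complex III, 4.42 for complex IV and 1.32 for complex V (medians). The same ratios in pro-B and pre-B-like cells were 0.557, 0.944, 1.73 and 0.538, and in erythroid-like cells 0.801, 1.21, 2.06 and 0.717. The difference between the classes was thus seen in each complex that has genes in both genomes.

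Classes with a low ratio also differed in depth and cycling. The median HSC-like cell had 8710 UMIs, 4.06% mitochondrial UMIs and 6.16 UMIs per 10000 from 24 cell cycle genes. Pro-B and pre-B-like cells had medians of 13326 UMIs and 85.6 cycle UMIs per 10000, erythroid-like cells 20808 and 42.0, granulocyte progenitor-like cells 16002.5 and 41.7, and megakaryocyte-like cells 14552 and 39.2. Conventional dendritic cell-like cells had 9994 UMIs and 2.70 cycle UMIs per 10000, and plasma cell-like cells 16357 and 1.45. The part of depth in the class differences was not tested.

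**Figure D2:**
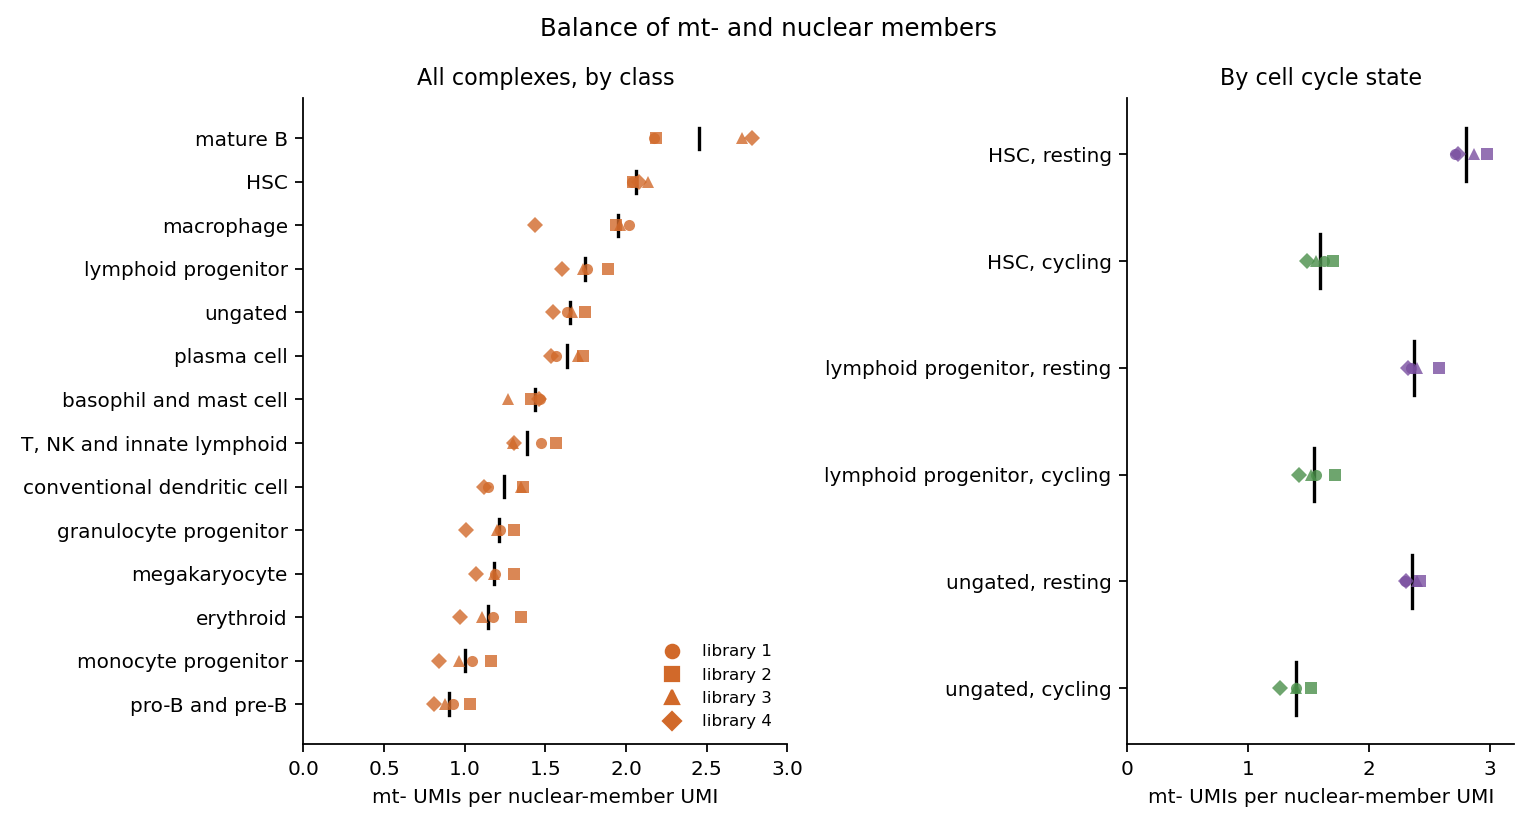
UMIs of mt- members per UMI of nuclear members (x axis, from 0) by cell class on the left, and in cycling and resting cells of 3 cell groups on the right. Each mark is 1 library and each upright bar the median; pro-B and pre-B-like cells lie lowest at 0.807 to 1.035, and every resting group lies above its cycling counterpart.

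Cells with at least 20 cycle UMIs per 10000 were set against cells with at most 2 within the same class and library, called cycling and resting. Nuclear members were higher in cycling HSC-like cells, with medians of 0.45, 0.52, 0.52 and 0.51, and 16 of 76 were called higher and 0 lower, beside 10.3% and 5.14% of all genes. The mt- median was -0.30, with 0 of 13 called. The mt- to nuclear ratio was 1.63, 1.70, 1.56 and 1.49 in cycling and 2.71, 2.97, 2.87 and 2.73 in resting HSC-like cells, with no overlap. In lymphoid progenitor-like cells the nuclear median was 0.39 with 8 higher and 0 lower, beside 7.69% and 3.85% of all genes, the mt- median was -0.11, and the ratios were 1.56, 1.72, 1.52 and 1.42 against 2.34, 2.58, 2.40 and 2.32. Ungated cells gave 0.42 with 14 higher and 0 lower, beside 10.3% and 6.36%, and an mt- median of -0.23. Cycling HSC-like cells had a median of 14365 UMIs and resting ones 7046.5, and the part of depth in these differences was not tested.

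The class differences were smaller among cycling cells alone, an alternative chosen after seeing the data. Against cycling HSC-like cells the nuclear median was 0.33 in pro-B and pre-B-like, 0.39 in erythroid-like, 0.30 in monocyte progenitor-like, 0.24 in granulocyte progenitor-like and 0.23 in megakaryocyte-like cells, and -0.041 in lymphoid progenitor-like cells, where the sign turned. The mt- medians were between -0.38 (pro-B and pre-B-like) and -0.010 (erythroid-like).

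Complex I takes electrons from NADH and has the most subunits, 36 nuclear and 7 mt- members. Its nuclear median was 0.50 in pro-B and pre-B-like cells, with 11 of 36 called higher beside 11.8% of all genes. In erythroid-like cells it was 0.50 with 8 called, beside 9.15%. Monocyte progenitor-like cells had 0.36 with 3 called, beside 8.47%, and granulocyte progenitor-like cells 0.35 with 2, beside 4.13%. Both of these last counts are near the background. Ndufs5, a small accessory subunit, stood highest of all nuclear members in pro-B and pre-B-like cells. It was at 407, 360.0, 383 and 393 CPM there and at 161, 149, 150.3 and 145 CPM in HSC-like cells of libraries 1 to 4, a difference of 1.34 (range 1.26 to 1.44, log2), and the groups did not overlap.

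Ndufa1, an accessory subunit encoded on the X chromosome, was the 1 nuclear member called higher in plasma cell-like cells, at 194, 165, 163 and 224 CPM against 112, 89.0, 88.0 and 93.0 in HSC-like cells. The difference was 0.88 (0.78 to 1.26) there, or 1.78 with mt-, immunoglobulin and hemoglobin UMIs left out of the total, and 1.05 (0.93 to 1.26) in erythroid-like cells. Ndufa8 was at -1.16 in plasma cell-like cells, where the median of all genes was -1.11, and at -0.30 and not called with those UMIs left out. Ndufs7, which carries an iron-sulfur cluster, was at -0.71 in conventional dendritic cell-like cells without passing the rule in all libraries (-0.49 in library 3). Ndufab1, the mitochondrial acyl carrier protein that also serves in lipoic acid synthesis, had a median of 0.65 (0.60 to 0.74) in pro-B and pre-B-like cells and 0.76 in cycling lymphoid progenitor-like cells. Ndufa6 lay below 0 in every library of all 3 cycling comparisons, as did Uqcrh of complex III. Ndufa6 was at 214, 179, 203 and 206 CPM in cycling and 282, 202, 267 and 269 CPM in resting HSC-like cells, a median of -0.39, and at -0.52 and -0.44 in cycling lymphoid progenitor-like and ungated cells, short of the call in each. In 2 of these cell groups every library was below 0 by at least 0.28, and library 2 was nearest to 0 in HSC-like cells, at -0.17.

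Complex II, succinate dehydrogenase, is wholly nuclear and belongs to the tricarboxylic acid cycle as well. Its 4 members did not move alike. Sdhb, the iron-sulfur subunit, was called higher in pro-B and pre-B-like cells at 158, 164, 194 and 175 CPM against 81.1, 84.9, 91.3 and 79.3 in HSC-like cells, a median of 1.02, and in monocyte progenitor-like cells at 0.79. Sdha, the flavoprotein, was at -0.15 in the same pro-B and pre-B-like cells, below 0 in every library (-0.19 to -0.06). Sdhd, a membrane anchor, was at 1.23 in erythroid-like cells (165, 188, 220.0 and 211 CPM against 84.9, 80.6, 92.5 and 84.5) and at -1.27 in plasma cell-like cells, the lowest nuclear member there. With mt-, immunoglobulin and hemoglobin UMIs left out of the total, Sdhd was at -0.39 in plasma cell-like cells and not called, and the median of all genes was -0.26. In erythroid-like cells Sdhd alone of the 4 was called, while Sdhb was at 0.75, Sdhc at 0.57 and Sdha at 0.28, all above 0 in each library.

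Complex III passes electrons from ubiquinol to cytochrome c. Its 8 nuclear members had the highest median of the complexes in erythroid-like cells, 0.82. Of them 4 were called higher (Uqcrc1, Uqcr10, Uqcr11 and Uqcrq), beside 9.15% of all genes. Uqcrq, a small subunit, was at 358, 346, 361 and 381 CPM in erythroid-like and 189, 173, 164 and 167 CPM in HSC-like cells. It was also called in pro-B and pre-B-like, granulocyte progenitor-like and monocyte progenitor-like cells. Uqcrh, the hinge subunit that contacts cytochrome c1, stood lowest of the nuclear members in granulocyte progenitor-like, monocyte progenitor-like and megakaryocyte-like cells instead. HSC-like cells had 776, 656, 748 and 770.0 CPM of Uqcrh, and the difference was -0.13 in pro-B and pre-B-like, -0.21 in granulocyte progenitor-like, -0.32 in monocyte progenitor-like and -0.11 in megakaryocyte-like cells, below 0 in every library and not called in any. Cycling HSC-like cells had 675, 592, 651 and 665 CPM of Uqcrh and resting ones 869, 789, 808 and 823, with no overlap and a median of -0.34.

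Complex IV, cytochrome c oxidase, reduces oxygen. Its 11 common nuclear members had the highest median of the complexes in pro-B and pre-B-like cells (0.74, 6 of 11 called higher), granulocyte progenitor-like cells (0.55, 3 called) and cycling HSC-like cells (0.60, 5 called). The shares of all genes called higher were 11.8%, 4.13% and 10.3% in that order. Cox5a, a subunit of the matrix side, was at 786, 718, 875 and 845 CPM in pro-B and pre-B-like and 345, 345, 347 and 317 CPM in HSC-like cells, a median of 1.26 (1.05 to 1.41). It was also called in granulocyte progenitor-like (0.95) and monocyte progenitor-like (0.97) cells and in cycling HSC-like cells (1.05). Cox6a1 was called higher in 6 of the 8 classes, namely erythroid-like (1.14), pro-B and pre-B-like (1.12), monocyte progenitor-like (1.02), conventional dendritic cell-like (0.78), megakaryocyte-like (0.71) and granulocyte progenitor-like cells (0.60). Ndufa4, first assigned to complex I and now counted with complex IV, was at 973, 880.3, 1009 and 940.2 CPM in cycling and 494, 395, 471 and 462 CPM in resting HSC-like cells, a median of 1.06, the highest of the 76 nuclear members. It was at 0.95 in cycling lymphoid progenitor-like and 1.01 in cycling ungated cells, and called in both. In conventional dendritic cell-like cells, of which few cycle, Ndufa4 was at -0.56, below 0 in every library and not called.

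**Figure D3:**
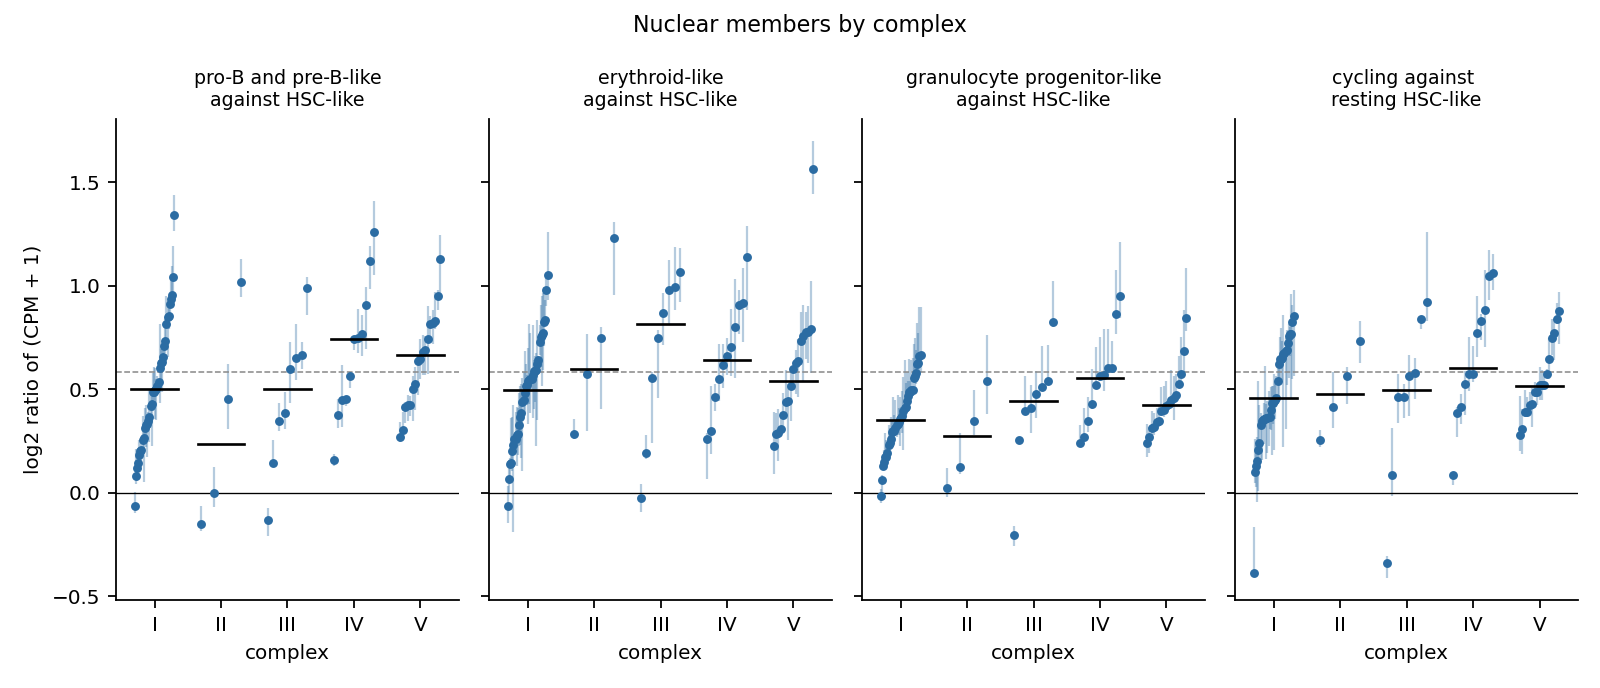
Median log2 difference of each nuclear member (y axis, log2 of CPM + 1, median over 4 libraries), by complex, in 4 comparisons. Each point is 1 gene with its range over the libraries as a thin line, the short bar is the median of the complex and the dashed line is 1.5-fold; Ndufs5 at 1.34 leads pro-B and pre-B-like cells and Atp5g1 at 1.56 leads erythroid-like cells.

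Complex V, ATP synthase, showed unequal changes among the 3 genes for subunit c whose sequences stand above. Atp5g1 was at 1013, 930.5, 1110.4 and 1137 CPM in erythroid-like cells and 346, 342, 371 and 349 CPM in HSC-like cells, a median of 1.56 (1.44 to 1.70), the highest of the nuclear members in that class. Atp5g2 was at 879, 820.2, 887 and 905 CPM against 718, 708, 732 and 693, a median of 0.28 that was not called. Atp5g3 was at 358, 403, 465 and 440 CPM against 228, 250.2, 254 and 240.0, a median of 0.78, and was called. Erythroid-like cells thus differed from HSC-like cells most in Atp5g1 and least in Atp5g2. In megakaryocyte-like cells Atp5g1 was at 605, 541, 650.3 and 636 CPM and again called higher, as it was in granulocyte progenitor-like cells (625, 589, 665 and 742). Atp5k, a subunit that helps synthase dimers form, was called in pro-B and pre-B-like (0.95), erythroid-like (0.78), megakaryocyte-like (0.77) and monocyte progenitor-like cells (0.68) and in cycling HSC-like cells (0.84).

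The 13 mt- genes are cut from long transcripts of the mitochondrial genome, and they did not differ from HSC-like cells by the same amount. mt-Co1, the catalytic core of complex IV, was at 4485, 4217, 4127 and 3803 CPM in pro-B and pre-B-like cells and at 7967, 6971, 7918 and 7997 in HSC-like cells, a median of -0.88. In erythroid-like cells it was at -0.86, not called because library 2 differed by -0.53. mt-Nd1, a membrane subunit of complex I, went the other way in erythroid-like cells, at 2547, 3185, 2778 and 2486 CPM against 1743, 1754, 1616 and 1480.0, a median of 0.76 with library 1, at 0.55, short of the call. In erythroid-like cells mt-Nd2 (0.17) and mt-Nd3 (0.16) were above 0 in all 4 libraries too. mt-Nd1 was the 1 mt- gene above 0 in all 4 libraries of both pro-B and pre-B-like (0.07) and megakaryocyte-like cells (0.11), and it was at 0.23 in cycling HSC-like cells, where mt-Co1 was at -0.61.

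mt-Nd6, the 1 member on the other strand of the mitochondrial genome, had few UMIs, with 21.0, 34.3, 19.1 and 19.9 CPM in erythroid-like cells and 54.5, 54.5, 48.4 and 47.0 CPM in HSC-like cells. The median was -1.25 there, -1.04 in pro-B and pre-B-like, -0.996 in granulocyte progenitor-like and -0.999 in monocyte progenitor-like cells. How well 3' counts capture the mt-Nd6 transcript was not tested, so these values are uncertain beside those of the other mt- genes. mt-Cytb, the mitochondrial subunit of complex III, was called lower in conventional dendritic cell-like cells at 1995, 1837, 2058 and 1972 CPM against 3776, 3672, 3765 and 3664, a median of -0.91, and was at -0.13 in erythroid-like cells. The other complex IV genes, mt-Co2 and mt-Co3, were at -0.64 and -0.66 in pro-B and pre-B-like cells. The complex V gene mt-Atp6 was at -0.72 there and -0.81 in conventional dendritic cell-like cells. Among complex I genes in pro-B and pre-B-like cells, mt-Nd2 was at -0.35, mt-Nd3 at -0.36, mt-Nd4 at -0.53 and mt-Nd5 at -0.29. The values of mt-Atp8 (-0.06) and mt-Nd4l (-0.18) are uncertain, since these genes overlap mt-Atp6 and mt-Nd4.

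**Figure D4:**
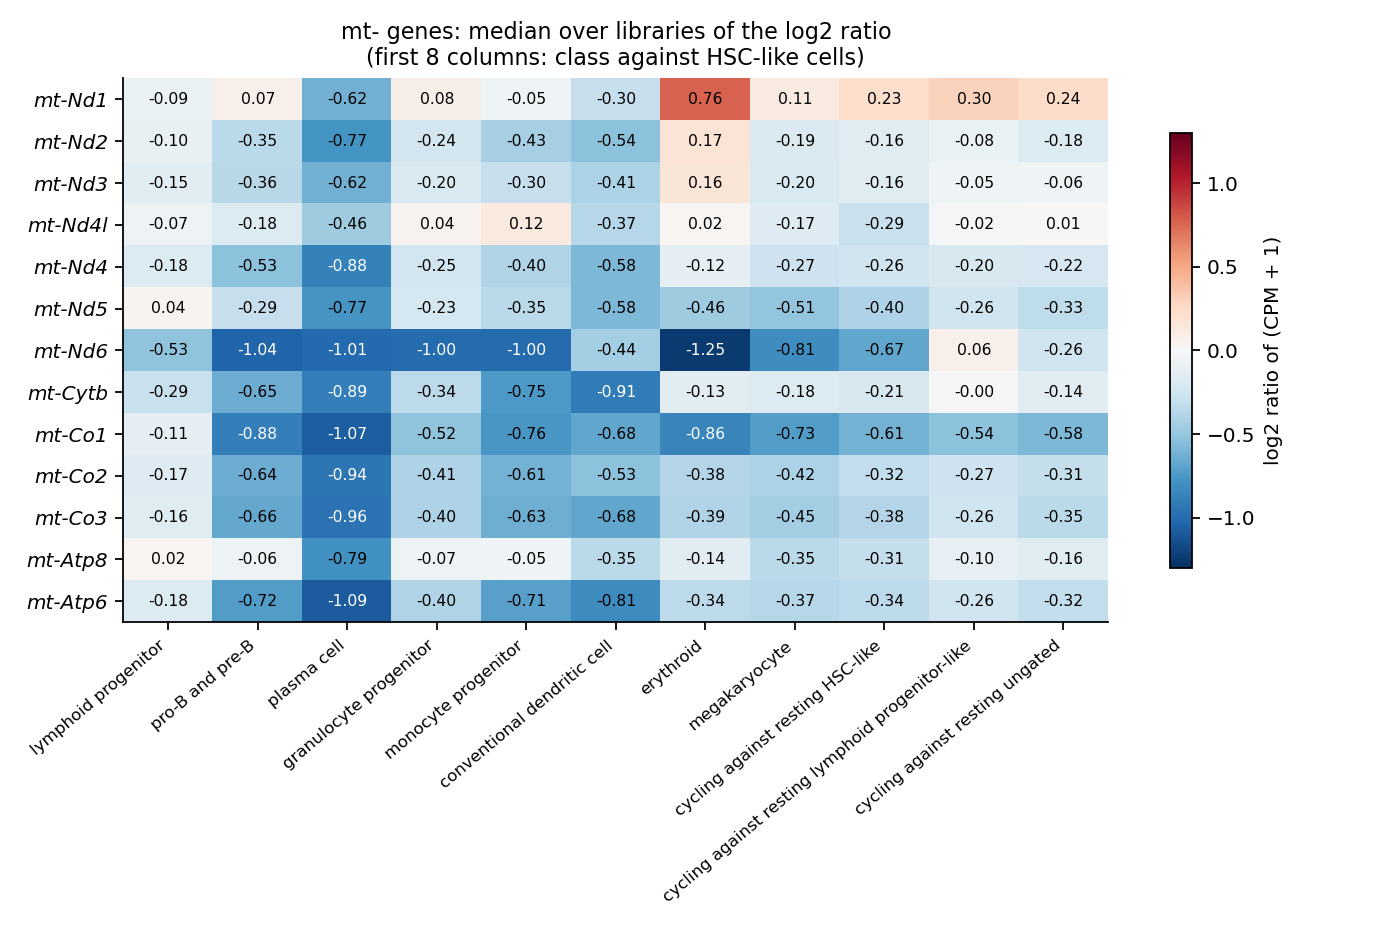
Median log2 difference of each of the 13 mt- genes (rows) in the class and cycling comparisons (columns), with the value in each cell on a colour scale from below to above the reference cells. mt-Nd1 is above 0 in erythroid-like cells (0.76) while mt-Co1 (-0.86) and mt-Nd6 (-1.25) are below.

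The tissue isoforms of complex IV were set apart from the medians because they replace a common subunit in some tissues. Cox6a2, known from striated muscle, was concentrated in lymphoid progenitor-like cells, gated on Dntt, Flt3, Il7r, Ly6d, Rag1 and Satb1. It was at 84.3, 76.8, 146 and 143 CPM there and at 0.458, 0.264, 0.592 and 0.743 CPM in HSC-like cells, which held 45 UMIs in all. Lymphoid progenitor-like cells were 10.5% of the kept cells and held 70.5% of the 7771 Cox6a2 UMIs. At least 1 UMI was seen in 32.2% of lymphoid progenitor-like cells (exact 95% interval 30.8 to 33.6, for counting error only) and in 0.358% of HSC-like cells (0.242 to 0.511), which have medians of 10328 and 8710 UMIs. Thinned to 5000 UMIs per cell the shares were 23.8% and 0.172%. Erythroid-like cells, with a median of 20808 UMIs, had 1 cell with a UMI among 299 (0.334%). Free RNA was not measured, and its part in these shares was not tested. The common form Cox6a1 differed little between these classes, at medians of 210.3 CPM in lymphoid progenitor-like and 181 CPM in HSC-like cells.

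Within the lymphoid progenitor-like cells Cox6a2 was uneven, in splits chosen after seeing the data. Cells with 3 detected markers had 35.1, 20.6, 44.3 and 43.6 CPM, and cells with 5 had 335, 296, 386 and 368 CPM. Pooled levels for 3, 4, 5 and 6 markers were 34.4, 182, 352 and 290.1 CPM. Cells with a UMI of Il7r, the interleukin-7 receptor, had 261 CPM and those without had 37.8. The split by Ly6d gave 299 against 68.6 CPM. Neither marker is particular to this class, since the 7 plasmacytoid dendritic cell-like cells had 289.8 CPM of Il7r and 3688 of Ly6d, above the 82.2 and 178 CPM of lymphoid progenitor-like cells. Among lymphoid progenitor-like cells without a UMI of the plasmacytoid marker Siglech, Cox6a2 was at 244 against 37.5 CPM in the split by Il7r and at 273 against 67.3 CPM in the split by Ly6d. Pro-B and pre-B-like cells had 5.40, 4.004, 8.18 and 7.98 CPM, far below the lymphoid progenitor-like cells in each library. Resting lymphoid progenitor-like cells had 101, 112, 188 and 196 CPM and cycling ones 77.3, 76.2, 153 and 133, higher in the resting cells of each library though not called.

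Plasmacytoid dendritic cells, a type I interferon producing lineage, held the most Cox6a2 per UMI. The 7 cells of that gate, 3, 2, 1 and 1 in libraries 1 to 4, had 37 UMIs of Cox6a2 and at least 1 each. The pooled level was 975 CPM (exact Poisson interval 686 to 1344, for counting error only and not the spread between cells or libraries). A split chosen after seeing the data, 23 cells with at least 3 UMIs of the plasmacytoid marker Siglech, gave 692, 1160.2, 1023 and 798 CPM. These rest on 5, 6, 5 and 7 cells in libraries 1 to 4. Lymphoid progenitor-like cells without a Siglech UMI had 83.4, 67.8, 133 and 137 CPM, beside 84.3, 76.8, 146 and 143 in the whole class. A cell of the plasmacytoid lineage can lack a Siglech UMI, and the part of such cells in the lymphoid level was not tested. Plasma cell-like cells had 56.6, 32.3, 49.1 and 22.2 CPM with a UMI in 14.7% of cells. These CPM rest on a total of which immunoglobulin took 42.5% to 51.0%, so they understate Cox6a2 beside other classes. With mt-, immunoglobulin and hemoglobin UMIs left out, Cox6a2 was called higher than in HSC-like cells, at 6.13, 5.56, 5.97 and 4.76 (log2). T, NK and innate lymphoid-like cells ranged from 12.4 to 121 CPM on 49 UMIs in all. Mature B-like, neutrophil precursor-like and basophil and mast cell-like cells held 0 UMIs among 126, 13 and 67 cells, which allows a share of cells with a UMI of up to 2.38%, 23.1% and 4.48%, taking 3 cells as the limit. The mature B-like cells had a median of 2253 UMIs.

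Cox6b2, known as the testis form of another complex IV subunit, was highest in erythroid-like cells. It was at 247, 237, 235 and 216 CPM there and at 65.7, 57.0, 47.7 and 56.3 CPM in HSC-like cells, a median of 1.98 (1.90 to 2.28), and was called. A UMI was seen in 87.3% of erythroid-like and 35.5% of HSC-like cells, or 62.9% and 21.9% after thinning to 5000 UMIs. By number of erythroid markers from 3 to 6, the pooled level was 203, 225, 236 and 266 CPM, and only library 1 rose at each step. Library 4, for example, was at 211, 239, 187 and 248 CPM. From 3 to 6 markers the median depth went from 12494 to 30886 UMIs. The pooled levels of Cox6b1 (525 to 721 CPM) and Cox6a1 (332 to 454 CPM) rose too. Next in order came basophil and mast cell-like cells with 106, 91.2, 80.4 and 149.6 CPM, then megakaryocyte-like cells with 79.8, 65.2, 67.2 and 85.7, which overlapped them. Granulocyte progenitor-like cells, at 68.7, 59.4, 57.5 and 56.5 CPM, overlapped HSC-like cells. Lymphoid progenitor-like cells were below at 43.0, 32.8, 27.5 and 31.0 CPM and called lower, and conventional dendritic cell-like cells had 4.22, 3.02, 10.6 and 10.5 CPM on 13 UMIs. Cycling HSC-like cells had 84.0, 68.2, 67.6 and 74.9 CPM and resting ones 43.2, 39.4, 26.8 and 39.5, also a called difference. The common form Cox6b1 was at a median of 619 CPM in erythroid-like and 381 CPM in HSC-like cells, a difference of 0.66 that was not called.

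Cox4i2, the hypoxia-linked form of Cox4, and Cox7a1, a muscle form, were rare. Cox4i2 was at 3.45 CPM in HSC-like cells (298 UMIs pooled over libraries) and 2.54 CPM in megakaryocyte-like cells (73 UMIs), and had 0 UMIs in the 299 erythroid-like cells. Cox7a1 was at 7.23 CPM in pro-B and pre-B-like cells (120 UMIs) and 0.925 CPM in HSC-like cells (80 UMIs). Both were under the filter of the comparisons.

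**Figure D5:**
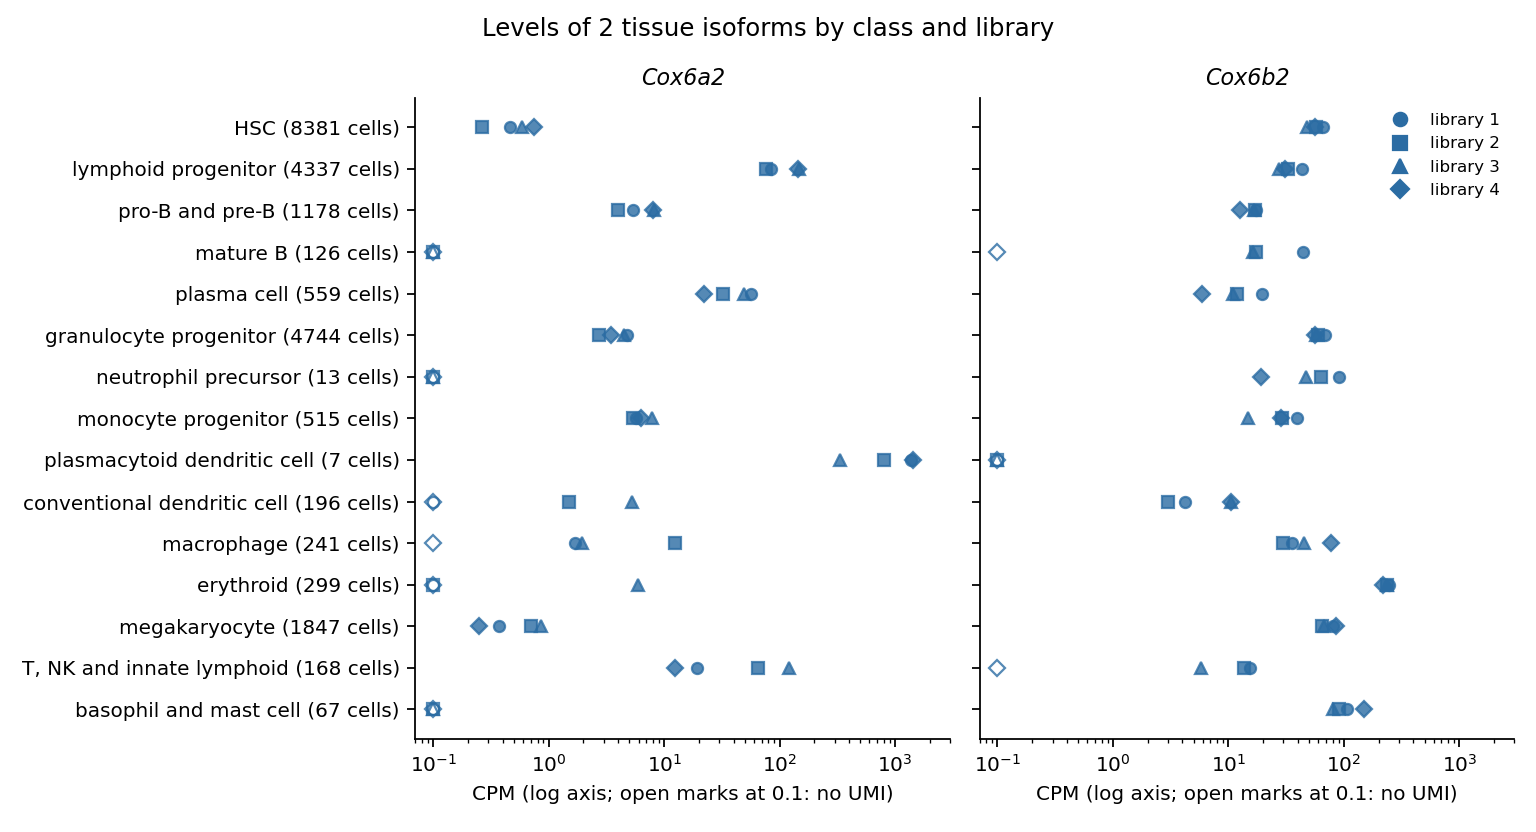
Level of Cox6a2 and Cox6b2 (x axis, CPM on a log axis) by cell class, with the number of cells. Each mark is 1 library, and open marks stand for libraries with no UMI; Cox6a2 is highest in the 7 plasmacytoid dendritic cell-like cells and in lymphoid progenitor-like cells (76.8 to 146 CPM), Cox6b2 in erythroid-like cells (216 to 247 CPM).

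The genes most like the isoforms across 13 of the 15 classes were named by Pearson's r of log2(CPM + 1), medians over libraries. The values are a description over classes that share depth and libraries. For Cox6a2 they were Cd28 (0.80), Mgst2 (0.73), Il7r (0.70), Tcf7 (0.68) and Notch1 (0.67). Il7r is itself a marker of the lymphoid progenitor-like gate. For Cox6b2 they were Gstm5 (0.94), Gclm (0.93), Dhrs4 (0.92), Clec4d (0.92) and Nfe2l2 (0.92). The summed mt- members were most like Chd6 (0.95), Rprd2 (0.94), Mga (0.92), Prpf39 (0.91) and Snhg20 (0.91).

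Genes that work beside the chain were counted from fixed lists. One list held the carrier cytochrome c (Cycs), the complex III subunit Cyc1, the inhibitor Atpif1 and the electron transfer flavoprotein genes Etfa, Etfb and Etfdh. It had a median of 0.84 in erythroid-like cells with 3 of 6 called higher (9.15% of all genes), 0.73 in megakaryocyte-like cells with 3 (3.54% of all genes) and 0.80 in cycling HSC-like cells with 4 (10.3% of all genes). Atpif1, an inhibitor of ATP synthase with a known role in red cell heme synthesis, was at 1877, 1533, 1942 and 2095 CPM in erythroid-like and 628, 553, 606 and 621 CPM in HSC-like cells, a median of 1.63. Cycs, cytochrome c itself, was at 217, 195, 235 and 238 CPM in pro-B and pre-B-like cells against 98.4, 101, 103 and 91.5, a median of 1.16. The tricarboxylic acid cycle list had 3 of 12 higher in erythroid-like cells (median 0.48) and 2 higher and 1 lower in pro-B and pre-B-like cells (0.23). Beside 9.15% of all genes higher in the former and 11.8% higher and 20.6% lower in the latter, the counts in pro-B and pre-B-like cells are near the background.

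The factors that assemble the complexes and express the mitochondrial genome had medians nearer 0 than the subunits did in pro-B and pre-B-like and in erythroid-like cells. In pro-B and pre-B-like cells the complex I assembly factors had a median of -0.04 with 1 of 13 called higher, and the factors for complexes III, IV and V had -0.14 with 1 of 18 lower. Genes of mitochondrial genome expression, such as the transcription factor Tfam, had -0.06 with 1 of 10 lower in those cells. In erythroid-like cells the medians were 0.41 (2 of 13 higher), 0.14 (3 of 19 higher) and 0.25 (1 of 11 higher). The last list was at -0.88 in conventional dendritic cell-like cells, with 4 of 9 called lower, beside 23.3% of all genes. The other counts in these lists are 1 to 3 genes, beside 11.8% higher and 20.6% lower in pro-B and pre-B-like and 9.15% higher in erythroid-like cells. Of the assembly and bridging members, Cox7a2l was at -0.64 in erythroid-like, -0.50 in granulocyte progenitor-like, -0.49 in megakaryocyte-like and -0.59 in cycling HSC-like cells. It was below 0 in every library and not called in these. Whether its product bridges complexes in this mouse strain was not tested. The succinate dehydrogenase assembly factor Sdhaf2 was at 0.64 in pro-B and pre-B-like cells and called higher.

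Promoters were read for 63 of the 76 nuclear members, as 68 windows of 300 bases (250 before and 50 after a start) from RefSeq on GRCm38.p6, and searched on both strands for 3 motifs of factors that are known regulators of respiratory genes. The NRF1 core CGCATGCG was in 9 windows (13.2%), beside 1.87% of all 32851 windows and 3.61% of those of genes with at least 100 UMIs. The ETS motif CCGGAAG, bound by GABP among others, was in 17 (25%) beside 8.86% and 16.7%. The YY1 motif AAGATGGCG was in 7 (10.3%) beside 1.4% and 2.78%. At least 1 of the motifs was in 27 windows (39.7%) beside 11.5% and 21.6%, and 0 windows held motifs that overlapped each other. By complex, YY1 was in 5 of the 32 complex I genes and 2 of the 14 complex V genes with a window, and in none of the others. A match describes letters in a window and not a bound site.

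The promoters of 3 of the complex IV genes described above are printed as examples. They are given on the strand of the gene with motif matches in capitals, which read CTTCCGG where the ETS motif lies on the opposite strand. Cox6a1 (chr5:115348909-115349208, minus strand), the subunit called higher in 6 classes, holds 1 NRF1 and 1 ETS match. Cox6b1 (chr7:30626065-30626364, minus strand) holds 1 ETS match. Cox6b2 (chr7:4753045-4753344, minus strand), highest in erythroid-like cells, holds 0 matches of the 3 motifs in this window, as is the case for most windows of the nuclear members.

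Cox6a1: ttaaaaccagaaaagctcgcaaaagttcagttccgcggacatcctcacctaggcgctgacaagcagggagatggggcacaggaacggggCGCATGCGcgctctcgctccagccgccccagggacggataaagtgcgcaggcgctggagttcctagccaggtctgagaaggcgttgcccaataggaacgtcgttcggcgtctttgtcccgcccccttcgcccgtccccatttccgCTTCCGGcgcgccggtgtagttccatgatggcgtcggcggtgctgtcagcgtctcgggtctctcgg

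Cox6b1: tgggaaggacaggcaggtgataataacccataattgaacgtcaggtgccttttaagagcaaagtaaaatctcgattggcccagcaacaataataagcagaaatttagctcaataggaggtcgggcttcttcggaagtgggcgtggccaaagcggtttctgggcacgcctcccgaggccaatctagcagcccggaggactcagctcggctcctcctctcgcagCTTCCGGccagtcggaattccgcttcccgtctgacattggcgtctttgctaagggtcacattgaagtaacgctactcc

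Cox6b2: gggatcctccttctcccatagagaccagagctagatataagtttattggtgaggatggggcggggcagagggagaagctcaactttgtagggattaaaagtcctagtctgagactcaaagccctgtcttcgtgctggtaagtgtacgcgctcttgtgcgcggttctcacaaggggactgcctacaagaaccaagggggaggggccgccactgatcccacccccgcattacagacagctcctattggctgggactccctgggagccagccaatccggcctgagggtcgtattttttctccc

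Between the 4 libraries of unknown genotype, the nuclear and mt- members differed little. Over all kept cells 0 of 76 nuclear and 0 of 13 mt- members differed by 1.5-fold between the highest and the lowest library, beside 3.4% of all genes, and the median range was 0.22 (log2) for nuclear members and 0.24 for all genes. Among HSC-like cells alone 0 of 76 and 0 of 13 passed as well, beside 7.02% of all genes, with median ranges of 0.18 and 0.27. The genes set beside the members were not matched for level, and the part of level in these shares was not tested. Library 2 was the lowest for 67 of 76 nuclear members over all kept cells and for 42 of 76 in HSC-like cells. The widest nuclear range in HSC-like cells was that of Ndufs1, at 35.5, 43.1, 33.8 and 33.4 CPM, highest in library 2. Atp5md (188, 147, 158 and 177 CPM), Ndufa1 (112, 89.0, 88.0 and 93.0), Ndufa3 (124, 97.7, 101 and 111) and Cox6c (502, 399, 426 and 437) followed, each highest in library 1. Among megakaryocyte-like cells mt-Nd6 was the 1 mt- member that passed, at 30.9, 36.4, 23.4 and 26.3 CPM. Cox6a2 passed over all kept cells, at 13.6, 12.0, 21.4 and 16.8 CPM, and in lymphoid progenitor-like cells libraries 3 and 4 lay above libraries 1 and 2. The make-up of that gate moved with it, since cells with 3 detected markers were 74.98%, 72.3%, 61.1% and 65.3% of it in libraries 1 to 4, and its part in the difference was not tested. Within cells of 3 and within cells of 5 markers, libraries 3 and 4 were above libraries 1 and 2 as well, by the values given above. Cells of 4 markers had the same order, at 144, 143, 204 and 254 CPM. Cells of 6 markers did not, at 312, 248, 287 and 320 CPM, with library 3 below library 1. Cox6b2 passed in lymphoid progenitor-like cells too, highest in library 1 (43.0 CPM) and lowest in library 3 (27.5 CPM).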

How the data were processed

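Single-cell RNA was measured in donor HSPCs of 4 samples. The authors deposited 1 matrix of unscaled UMI counts, whole numbers for each cell, aggregated over the libraries. Cell Ranger 6.1.2 made it, per the file headers, and mm10 is named in the submitters' processing notes. The labels' protocols name the 10x 3' v3.1 kit.

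Cells with at least 500 genes and at most 10% mt- UMIs were kept (3029 of 44151 barcodes removed) and gated with at least 3 of 6 markers, leaving 3715 tied cells and 14729 cells under 3 markers without a class. Scanpy 1.11.5, NumPy 2.4.6, SciPy 1.17.1 and Matplotlib 3.10.9 were used, with edgeR 4.0.16 for TMM factors alone. Within each library the UMIs of a class were added up, turned into CPM and compared as log2(CPM + 1) for genes with at least 100 UMIs in total and 10 CPM averaged over both sides. Doublets were not removed, and an alternative left out the top 8% of doublet scores. The alternative Leiden clusters came from leidenalg 0.10.2.

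Members and gene lists were chosen with earlier results of these data known. Named nuclear members were, per comparison, the 4 highest and 4 lowest at 50 CPM or more, ranked by the library closest to 0, of which the text gives those that led a complex. All mt- genes, the tissue isoforms, the Atp5g genes, the 5 members with the widest range between libraries, and the 5 genes most like Cox6a2 and the summed mt- members were named as well. The 5 genes most like Cox6b2 were not part of that plan and were added to it. Other named members were chosen after their values were seen. The planned protein comparison was replaced by coding sequences. Reads from processed pseudogenes of nuclear members cannot be told apart here.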

Additional observations from a re-analysis of the deposited data

How the results depend on the processing

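Of 282 recomputed nuclear and mt- medians of the 8 class comparisons, 235 moved by less than the spread between libraries, 41 moved further and 6 changed sign. No paired analysis was possible because the libraries are not assigned to wild type or mutant, which leaves no groups to pair; the class comparisons are made within each library. Leaving out 1 library, mitochondrial limits of 5% or none, at least 1000 genes, a pseudocount of 5, a gene filter of 50 CPM or none, and leaving out high doublet scores or shared barcodes moved none of the medians recomputed beyond that spread. Leaving out high doublet scores gave no conventional dendritic cell-like value, resting cells alone gave only lymphoid progenitor-like and plasma cell-like values, cycling cells alone gave none for plasma cell-like and conventional dendritic cell-like cells, and Leiden clusters gave none for monocyte progenitor-like cells. The cause of the moves below was not tested.

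Gating with 2 markers put plasma cell-like medians at -0.51 (nuclear) and -0.71 (mt-). Gating with 4 put them at -0.81 and -1.03, and the nuclear medians of granulocyte progenitor-like, erythroid-like and megakaryocyte-like cells at 0.50, 0.65 and 0.51; conventional dendritic cell-like cells were too few. A total without mt-, immunoglobulin and hemoglobin UMIs turned both plasma cell-like medians, to 0.26 and 0.070. TMM gave nuclear and mt- medians of 0.19 and -0.044 in lymphoid progenitor-like, 0.79 and -0.29 in pro-B and pre-B-like, 0.47 and 0.27 in plasma cell-like, 0.54 and -0.11 in granulocyte progenitor-like, 0.71 and -0.13 in monocyte progenitor-like, 0.47 and -0.12 in conventional dendritic cell-like and 0.73 and 0.012 in erythroid-like cells, and an mt- median of -0.25 in megakaryocyte-like cells. Resting cells alone put plasma cell-like medians at -0.75 and -1.22. Cycling cells alone, added after seeing the data, gave -0.041 and -0.070 in lymphoid progenitor-like, 0.33 and -0.38 in pro-B and pre-B-like, 0.24 and -0.17 in granulocyte progenitor-like, 0.30 and -0.28 in monocyte progenitor-like, 0.39 and -0.010 in erythroid-like and 0.23 and -0.23 in megakaryocyte-like cells. Leiden clusters gave nuclear medians of 0.72 in pro-B and pre-B-like, 0.81 in granulocyte progenitor-like, 0.40 in conventional dendritic cell-like and 0.55 in megakaryocyte-like cells, and mt- medians of -0.25 in lymphoid progenitor-like, -1.07 in plasma cell-like, -0.49 in granulocyte progenitor-like, -0.65 in conventional dendritic cell-like and -0.34 in erythroid-like cells.

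At a fold of 5/4 the nuclear members called higher were 1 in lymphoid progenitor-like, 50 in pro-B and pre-B-like, 42 in granulocyte progenitor-like, 39 in monocyte progenitor-like, 6 in conventional dendritic cell-like, 48 in erythroid-like and 40 in megakaryocyte-like cells, and those called lower were 57 in plasma cell-like and 8 in conventional dendritic cell-like cells. The shares of all genes at that fold were 6.88%, 18.7%, 12.7%, 14.1%, 13.4%, 17.8% and 12.6% higher in the same order, and 81.2% and 35.2% lower. At a fold of 2 those higher were 2 in pro-B and pre-B-like, 1 in erythroid-like and 0 in plasma cell-like, granulocyte progenitor-like, monocyte progenitor-like, conventional dendritic cell-like and megakaryocyte-like cells, and 2 were lower in plasma cell-like cells. The shares of all genes were then 5.94%, 3.34%, 3.03%, 1.24%, 4.82%, 7.43% and 0.824% higher in that order, and 37.6% lower in plasma cell-like cells, so the members stood under the background at this fold. Without 1 library, the number higher in conventional dendritic cell-like cells was 1 to 3 (3 without library 3) and lower 0 to 1 (1 without library 1 and without library 3), and 3 to 8 were higher in megakaryocyte-like cells (8 without library 2).

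A level from the smallest classes rests on few cells, 7 for plasmacytoid dendritic cell-like and 13 for neutrophil precursor-like cells, and mt-Nd6 and the rare isoforms rest on few UMIs. Depth differed between classes, and CPM of a class moves with its most abundant transcripts.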
